A study of Mus musculus with 36 samples.

Results

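The genes described are 9 of the 78239 genes counted in the series, and they share a single piece of DNA sequence. They are the 6 mitochondrial genes that lie wholly inside a stretch with a near-identical nuclear copy on chromosome 1, *mt-Co2* (ENSMUSG00000064354), *mt-Atp8* (ENSMUSG00000064356), *mt-Atp6* (ENSMUSG00000064357), *mt-Co3* (ENSMUSG00000064358), *mt-Nd3* (ENSMUSG00000064360) and *mt-Nd4l* (ENSMUSG00000065947), and 3 pseudogenes annotated inside the copy, *Gm28661* (ENSMUSG00000102070), *Gm28439* (ENSMUSG00000100131) and *Gm10222* (ENSMUSG00000067736). For the 6 mitochondrial genes membership follows position in the genome. The 3 pseudogenes are a part of the 8 genes annotated wholly or partly in the copy, and position alone does not set them apart. The genes were nevertheless chosen by their counts in these same libraries, after changes with age had been seen, so their levels and fold changes are given as a description, with no test of the group. Bulk RNA was sequenced from heart, kidney and liver of male wild-type C57BL/6NCrl mice aged 8, 10 or 12 weeks, with 4 libraries, described as biological replicates, in each of the 9 groups and 36 libraries in all. The inbred mice were untreated and carry no engineered allele by their labels, so the groups differ in tissue and age, and the libraries were prepared from polyadenylated RNA and read as pairs of 150 bases.

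The mitochondrial genome encodes core subunits of the respiratory chain and of ATP synthase, and its long transcripts are cut into individual mRNAs that receive short poly(A) tails. Pieces of mitochondrial DNA have also been copied into nuclear chromosomes during evolution, and such copies usually carry no working gene. A read pair that matches the mitochondrial genome and a nuclear copy equally well has no single place of origin. The aligner used here, STAR, reports such a pair as multimapping, and its gene counts hold only pairs with 1 best place.

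In the reference genome GRCm39 the mitochondrial bases 6390 to 11042, 4653 bases, matched chr1:24650616-24655269 on the reverse strand with 99.936% identity, 2 substitutions and 1 inserted base in all. Shorter copies were on chromosome 2 (3260 bases, 97.362% identity), chromosome 4 (2875 bases, 93.0%), chromosome 5 (1011 bases, 83.6%) and chromosome 13 (955 bases, 95.2%). No differing base lay inside *mt-Co2*, *mt-Atp8*, *mt-Atp6*, *mt-Co3* or *mt-Nd4l*, so none of the windows of 150 bases within these genes held a base that tells the copies apart. These windows were taken from the reference genome, and the DNA sequence of the mice themselves was not examined. In *mt-Nd3* 1.51% of such windows held the only differing base among the 6 genes, written T9461C with the mitochondrial base first, the position counted from the start of the mitochondrial sequence, and the chromosome 1 base last. That base lies in the sequences below, given in the direction of the mitochondrial gene with the differing base in capitals. They begin before *mt-Nd3*, which spans bases 9459 to 9806.
mt-Nd3, mitochondrial bases 9431 to 9491: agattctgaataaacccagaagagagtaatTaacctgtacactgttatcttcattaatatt
the copy, chr1:24652168-24652228: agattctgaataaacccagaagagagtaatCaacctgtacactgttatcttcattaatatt
The inserted base lengthens a run of 8 adenines in the transfer RNA gene *mt-Tr*, between *mt-Nd3* and *mt-Nd4l*, to 9 on chromosome 1, shown in capitals. These sequences begin inside the end of *mt-Nd3*.
mt-Tr, mitochondrial bases 9796 to 9853: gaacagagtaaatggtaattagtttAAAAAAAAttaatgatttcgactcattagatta
the copy, chr1:24651805-24651863: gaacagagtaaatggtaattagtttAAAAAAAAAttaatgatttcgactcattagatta
The edges of the match are shown because beyond them the sequences part and a pair can be placed. Capitals mark the bases outside the match, and the other substitution, A6393T, is the fourth base inside the first edge, in *mt-Co1*.
mitochondrial bases 6365 to 6414: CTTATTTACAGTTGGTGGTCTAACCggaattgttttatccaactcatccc
chr1:24655245-24655294: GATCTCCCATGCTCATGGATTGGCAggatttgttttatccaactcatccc
mitochondrial bases 11018 to 11067: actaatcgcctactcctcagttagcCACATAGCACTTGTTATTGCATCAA
chr1:24650591-24650640: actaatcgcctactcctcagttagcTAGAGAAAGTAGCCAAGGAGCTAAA

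From *mt-Co2* (bases 7013 to 7696) the nearest separating position was 620 bases away, from *mt-Atp6* (7927 to 8607) it was 854, from *mt-Atp8* (7766 to 7969) it was 1373, from *mt-Co3* (8607 to 9390) it was 71, and from *mt-Nd4l* (9877 to 10173) it was 56. *mt-Co1* and *mt-Nd4* reach into the stretch with 31.3% and 63.6% of their length and are not counted among the 6. On chromosome 1 the annotation has 8 genes in the stretch, all on the reverse strand. *Gm28661* (chr1:24653966-24654646) shares 681 bases with *mt-Co2*, *Gm10222* (chr1:24651488-24651781) shares 294 with *mt-Nd4l*, and *Gm28439* (chr1:24650616-24651491) shares 876 with the start of *mt-Nd4*, in each case without a differing base. The remaining 5 are *Gm29216*, *Atp6-ps*, *Gm28437*, *Gm28438* and *Gm71269*, opposite *mt-Co1*, *mt-Atp6*, *mt-Co3* and, for the last pair, *mt-Nd3*. All but *Gm71269*, a long non-coding RNA, are annotated as unprocessed pseudogenes, *Gm28438* as a transcribed one. Neighbouring genes overlap, *mt-Atp8* and *mt-Atp6* by 43 bases, and a pair that touches both is counted for neither.

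**Figure D1:**
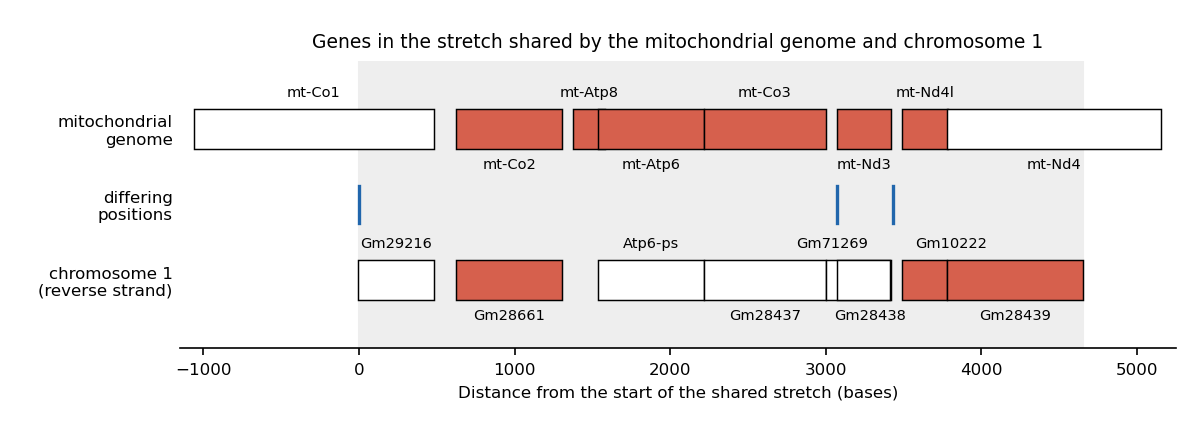
Map of the shared stretch (grey), with distance in bases from its start on the horizontal axis, mitochondrial genes above, genes annotated on chromosome 1 below, and the 3 differing positions as vertical lines. Filled boxes are the 9 genes described, and all 3 lines lie outside *mt-Co2*, *mt-Atp8*, *mt-Atp6*, *mt-Co3* and *mt-Nd4l*.

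The libraries held 21031599 to 33637390 counted pairs. In each, 49.8% to 50.2% of the counts by strand fell in the first strand column, so they kept no strand. Each tissue carried the markers of its label, since 5 heart muscle genes summed to 40204 to 53311 counted pairs per 1000000 (CPM) in heart and at most 1.83 elsewhere, 5 kidney genes to 23050 to 30422 in kidney and at most 6.04 elsewhere, and 5 hepatocyte genes to 74831 to 113011 in liver, 1719 to 2758 in kidney and at most 23.9 in heart. Of markers of other cells, 5 red cell genes summed to 197 to 886 CPM in heart, 1.19 to 6.95 in kidney and 111 to 196 in liver with *Hba-a2* and *Hbb-bs* at 0, 4 leukocyte genes to 113.5 to 164, 107 to 215 and 43.8 to 138, and 8 brown fat genes to 262 to 455, 0.422 to 48.96 and 18.2 to 287 with *Ucp1* at 0 in heart. Of the 8 brown fat genes only 3 were above 1 CPM in the heart groups, 3 in the kidney groups and 1 in the liver groups, and *Otop1* was at 0 in liver. The liver sum thus rests mainly on 1 gene, and no brown fat cells are read from these sums. The part of these other cells in the results was not tested. Heart replicate 1 at 8 weeks stood apart with 1318 CPM of *mt-Rnr2*, a mitochondrial ribosomal RNA, against 4845 to 7815 in the other heart libraries. In bulk tissue fewer cells of a type and less RNA per cell cannot be told apart.

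The 6 mitochondrial genes were counted at a small fraction of the level of the genes around them. Per kilobase of gene, the median level of *mt-Co2*, which encodes a catalytic subunit of cytochrome c oxidase, came to 36.9 CPM for hearts, 24.5 for kidneys and 13.96 for livers. Its neighbour *mt-Co1*, another catalytic subunit of the same enzyme, had medians of 77934, 23930 and 18597 on the same scale. Within a library the level per kilobase of *mt-Co1* was 751 to 9545 times that of *mt-Co2*, with medians of 2700 in heart, 984 in kidney and 1338 in liver. *mt-Cytb*, of complex III and outside the stretch, stood 570 to 5122 times above *mt-Co2*. All 6 genes together held 0.00417% to 0.0376% of the counts on the 13 mitochondrial protein genes, which themselves took 25.3% to 31.1% of counted pairs in heart, 9.01% to 10.6% in kidney and 5.90% to 7.05% in liver. The lowest of the 6 was *mt-Atp8*, with 0 to 20 pairs per library. *mt-Nd4l* had 1 to 28 and *mt-Nd3* 0 to 51, and summed over a tissue *mt-Nd4l* was the lower of these in heart and *mt-Nd3* in kidney and liver, so for all 3 genes the counting error is large. A count of 0, as for *mt-Atp8* in 3 libraries, allows up to 3 pairs. The levels given here are those of uniquely placed pairs, and how much RNA they stand for was not tested. Against *mt-Co1* per kilobase the median gap in heart was 4236 times for *mt-Co3*, 7673 for *mt-Atp6*, 27900 for *mt-Nd3*, 41523 for *mt-Nd4l* and, in the 11 hearts with a pair, 46873 for *mt-Atp8*.

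**Figure D2:**
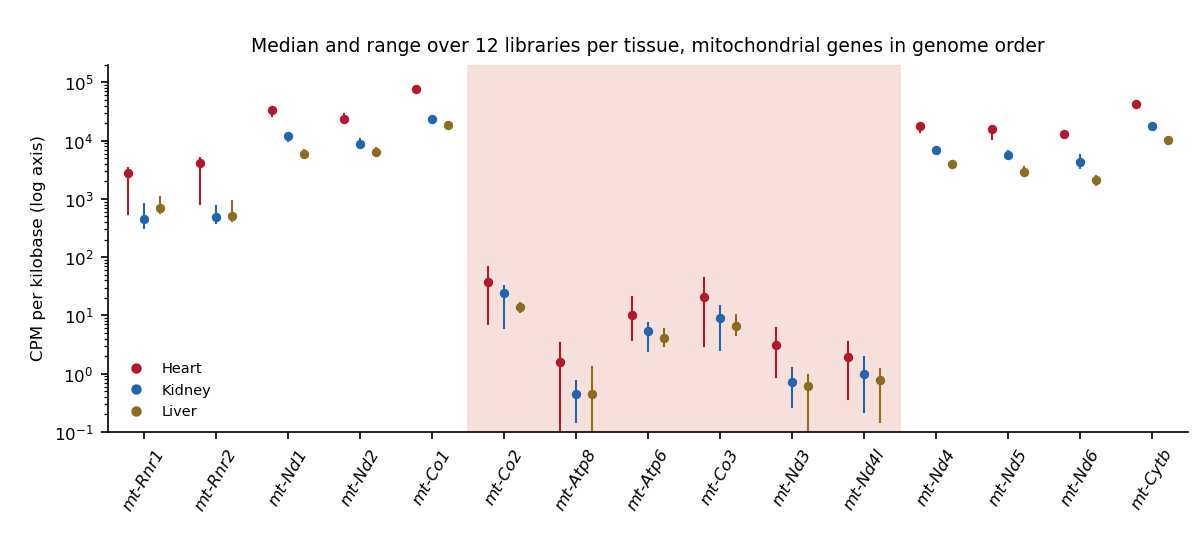
Level per kilobase (CPM per kb, log axis) of the mitochondrial protein and ribosomal RNA genes in genome order, with the median (point) and the range (line) over the 12 libraries of each tissue. The 6 genes in the shaded band sit at or below 68.9 CPM per kb and the others between 321 and 87461, and lines that reach the floor of the plot include a level of 0.

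Among the subunits of cytochrome c oxidase, *mt-Co2* was high in heart at 8 weeks and low in kidney at 8 weeks. In heart at 8 weeks its level was 36.7, 44.7, 45.7 and 41.5 CPM in replicates 1 to 4, at 10 weeks 47.1, 13.7, 13.6 and 13.01, and at 12 weeks 46.2, 13.8, 11.1 and 4.91. Replicate 1 of both older groups thus lay in or above the range of the 8-week hearts, and the other 6 lay below it. In kidney the level was 4.22, 4.16, 4.58 and 4.89 at 8 weeks, 17.01, 21.5, 20.5 and 18.7 at 10 weeks, and 14.2, 17.3, 17.8 and 16.4 at 12 weeks. The kidney groups at 10 and 12 weeks did not overlap the 8-week group, and the fitted log2 fold change was 2.10 ± 0.11 (SE) at 10 weeks and 1.89 ± 0.11 at 12 weeks. From the first strand column it was 0.75 ± 0.13 and 0.82 ± 0.13, and from the second 1.96 ± 0.12 and 1.70 ± 0.12. In liver all 12 values lay between 7.75 and 11.2, and the ages overlapped. By group mean, heart at 8 weeks came first with 42.1 ± 4.08 CPM (SD, n = 4), followed by heart at 10 weeks with 21.8 ± 16.8, kidney at 10 weeks with 19.4 ± 1.99, heart at 12 weeks with 19.02 ± 18.5 and kidney at 12 weeks with 16.4 ± 1.57, each overlapping its neighbour in this order. The livers followed, below both older kidney groups but with heart replicates 3 and 4 at 12 weeks inside and below their range, at 9.52 ± 0.685, 9.37 ± 0.837 and 9.30 ± 1.53 for 10, 12 and 8 weeks, overlapping each other, and kidney at 8 weeks was last at 4.46 ± 0.339, below all livers.

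*mt-Co3*, which encodes the other mitochondrial core subunit in the stretch, had the same order of the ages. In heart it was 33.8, 28.2, 26.7 and 27.3 CPM at 8 weeks, 27.4, 10.8, 5.76 and 7.27 at 10 weeks, and 21.2, 6.12, 5.57 and 2.34 at 12 weeks. The 12-week hearts all lay below the 8-week hearts, with a log2 fold change of -1.77 ± 0.50. The strand columns gave -0.60 ± 0.35 and -1.35 ± 0.40, and none of these values passed the test. In kidney it was 2.02 to 2.63 at 8 weeks, 6.62 to 11.3 at 10 weeks and 6.43 to 9.96 at 12 weeks, with log2 fold changes against 8 weeks of 1.84 ± 0.19 and 1.73 ± 0.19. The first strand column gave 1.07 ± 0.16 and 0.91 ± 0.16, and the second 1.56 ± 0.22 and 1.45 ± 0.22. In liver it was 3.66 to 4.38 at 8 weeks, 5.72 to 8.03 at 10 weeks and 4.70 to 5.30 at 12 weeks, and these 3 ranges did not overlap.

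The subunits of ATP synthase, *mt-Atp6* and *mt-Atp8*, form part of its membrane channel. *mt-Atp6* was 9.85 to 13.9 CPM in heart at 8 weeks, against 11.3, 4.60, 4.43 and 5.74 at 10 weeks and 8.01, 5.33, 4.33 and 2.60 at 12 weeks, with a log2 fold change of -1.20 ± 0.30 at 12 weeks. From the strand columns, which hold more pairs of this gene, the log2 fold change at 12 weeks was -0.45 ± 0.35 in the first and -0.33 ± 0.36 in the second, and neither passed the test. In kidney it was 1.69 to 2.33 at 8 weeks, 3.69 to 5.03 at 10 weeks and 3.03 to 4.67 at 12 weeks, so both older groups lay above the youngest. The log2 fold change at 10 weeks was 1.01 ± 0.18 there. The strand columns gave 0.41 ± 0.20 and 0.37 ± 0.22, and neither passed the test. In liver the 12 values lay between 2.04 and 3.98. *mt-Atp8* did not pass the count filter in kidney or liver, and in heart its log2 fold change was -0.26 ± 0.62 at 10 weeks and -1.54 ± 0.71 at 12 weeks. These values rest on 92 heart pairs, and the sign changed with the column: the first strand column gave 0.71 ± 0.62 and 0.35 ± 0.63 at 10 and 12 weeks, and the second 0.37 ± 0.58 and -0.43 ± 0.60. None of the 6 values passed the test.

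The subunits of complex I, *mt-Nd3* and *mt-Nd4l*, form part of the arm of that complex in the membrane. *mt-Nd3* was 1.36 to 2.14 CPM in heart at 8 weeks, 1.39, 0.736, 0.443 and 0.785 at 10 weeks, and 1.602, 0.676, 0.302 and 0.595 at 12 weeks. Here too replicate 1 of the older groups lay within the range of the 8-week hearts. *mt-Nd3* passed the filter in heart only. *mt-Nd4l* lay between 0.0442 and 1.03 CPM over all 36 libraries and was not tested in liver.

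Of the 3 pseudogenes on chromosome 1, *Gm28661* had the highest counts, from 203 to 7279 pairs per library, and exceeded its mitochondrial twin *mt-Co2* in each library. In heart it was 295, 209, 207 and 223 CPM at 8 weeks, 73.9, 34.4, 31.4 and 33.9 at 10 weeks, and 75.9, 33.1, 31.3 and 9.26 at 12 weeks. No older heart reached the 8-week hearts, and the log2 fold change was -2.41 ± 0.41 at 10 weeks and -2.67 ± 0.42 at 12 weeks. In kidney it was 9.52, 9.66, 10.4 and 11.1 at 8 weeks, 95.5, 35.1, 33.4 and 30.0 at 10 weeks, and 22.1, 27.4, 27.3 and 88.6 at 12 weeks. Replicate 1 at 10 weeks and replicate 4 at 12 weeks lay far above the other kidneys of their age, although *mt-Co2* in the same libraries did not. In liver it was 16.2, 15.01, 11.6 and 13.4 at 8 weeks, 50.2, 44.7, 45.0 and 50.6 at 10 weeks, and 43.4, 44.7, 46.5 and 45.2 at 12 weeks, with log2 fold changes against 8 weeks of 1.71 ± 0.10 at both ages. In the same livers *mt-Co2* had log2 fold changes of -0.02 ± 0.12 and 0.04 ± 0.12. By group mean, heart at 8 weeks stood first at 234 ± 41.6 CPM (SD, n = 4), above all other groups without overlap. Kidney at 10 weeks (48.5 ± 31.4), liver at 10 weeks (47.6 ± 3.23) and 12 weeks (44.9 ± 1.28), heart at 10 weeks (43.4 ± 20.4), kidney at 12 weeks (41.4 ± 31.6) and heart at 12 weeks (37.4 ± 27.9) overlapped from neighbour to neighbour, as did the last of these with liver at 8 weeks (14.1 ± 2.02), while kidney at 8 weeks (10.2 ± 0.716) lay below the livers.

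*Gm28439*, the copy of the start of *mt-Nd4*, was 8.80 to 10.3 CPM in heart at 8 weeks, 9.25, 5.61, 4.76 and 3.72 at 10 weeks, and 8.38, 6.40, 4.53 and 1.97 at 12 weeks. In kidney it was 2.02 to 2.42 at 8 weeks, 3.06 to 3.52 at 10 weeks and 2.75 to 3.85 at 12 weeks, without overlap of either older group with the youngest. In liver it lay between 1.59 and 2.57. *Gm10222*, the copy of *mt-Nd4l*, was 2.39 to 6.79 CPM in heart, 0.610 to 1.71 in kidney and 0.629 to 1.17 in liver, and its ages overlapped in each tissue. The lowest of the 8-week hearts for both *Gm10222* and *mt-Nd4l* was replicate 1, the library with little *mt-Rnr2*.

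**Figure D3:**
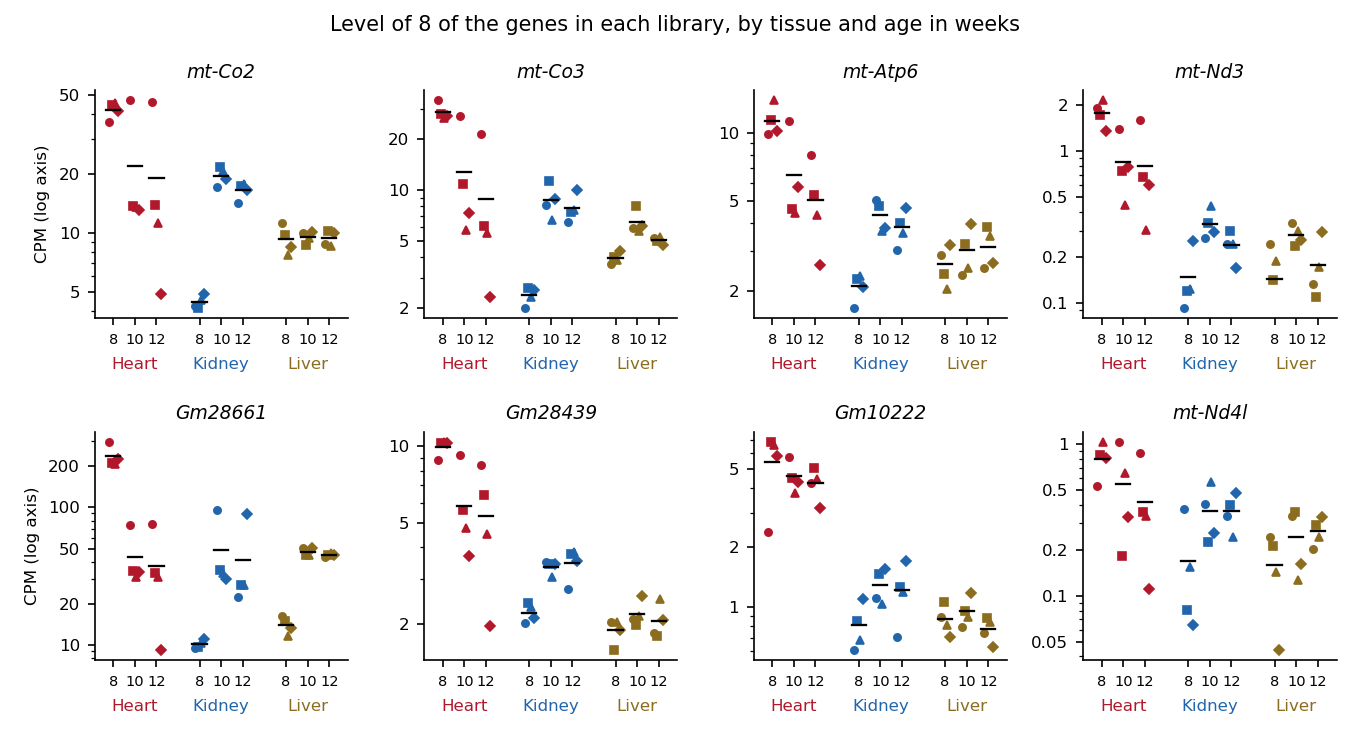
Level (CPM, log axis) of 8 of the 9 genes in each library, with age in weeks on the horizontal axis, the mean of a group as a bar, and circle, square, triangle and diamond for replicates 1 to 4. In the heart panels of *mt-Co2*, replicate 1 at 10 and 12 weeks (47.1 and 46.2) sits with the 8-week hearts, while in the kidney panels of *Gm28661* 2 libraries (95.5 and 88.6) sit apart. A *mt-Nd3* level of 0 in 1 liver is not drawn, and *mt-Atp8* is left out for its low counts.

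In edgeR's quasi-likelihood fit of each tissue, with p-values adjusted over all genes tested, 1 of 9 genes, *Gm28661*, was lower in heart at 10 than at 8 weeks, where 0.304% of the 15137 genes tested were lower. At 12 against 8 weeks in that tissue 2 of 9, *Gm28661* and *mt-Atp6*, were lower, with 2.21% of all genes, and *mt-Atp6* was not called from either strand column. In kidney 7 of the 9 genes passed the filter. At 10 against 8 weeks 4 of them, *mt-Co2*, *mt-Atp6*, *mt-Co3* and *Gm28661*, were higher, with 0.646% of the 17649 genes tested. Of these, *Gm28661* was not called with limma-voom, and *mt-Atp6* was not called from either strand column. At 12 against 8 weeks 2 of them, *mt-Co2* and *mt-Co3*, were higher, with 0.0397% of all genes, and *mt-Co3* was not called from the first strand column. In liver 6 genes passed the filter, and *Gm28661* was higher at 10 weeks, with 0.0136% of the 14672 genes tested, and at 12 weeks, with 0.177%. Both comparisons in a tissue share the 8-week libraries. No gene of the 9 moved in the other direction, where 0.76% and 2.36% of all genes were higher in heart at 10 and 12 weeks, 0.283% and 0.017% lower in kidney, and 0.00682% and 0.0613% lower in liver. Between 10 and 12 weeks none of the 9 passed in any tissue with edgeR, DESeq2 or limma-voom, and none had an unadjusted p under 0.05 in edgeR. In that comparison 0.0132% of all genes were higher and 0.0264% lower in heart, against 0.136% and 0.346% for kidney and 0.0204% and 0.0341% for liver. Since the genes were chosen with such changes known, nothing is read from these counts about the group.

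By ranges of the level alone, with 4 libraries against 4, 1 gene of the 9, *Gm28661*, lay wholly lower in heart at 10 than at 8 weeks, with 4.74% of all genes, and 4 did so at 12 weeks, *Gm28661*, *Gm28439*, *mt-Atp6* and *mt-Co3*, with 4.76%. In kidney 5 genes, *mt-Co2*, *mt-Co3*, *mt-Atp6*, *Gm28661* and *Gm28439*, lay wholly higher than at 8 weeks at both ages, with 5.24% of all genes at 10 weeks and 2.73% at 12. In liver 2 genes, *Gm28661* and *mt-Co3*, did so at both ages, with 6.07% and 3.48%, and *mt-Co3* lay lower at 12 than at 10 weeks, with 7.07%. In the other direction none of the 9 lay apart, where the share of all genes was 4.14% and 8.49% higher in heart, 3.43% and 4.1% lower in kidney and 3.22% and 3.95% lower in liver against 8 weeks. Between 10 and 12 weeks none of the 9 lay apart in heart, with 3.56% of all genes higher and 2.07% lower, or in kidney, with 3.14% and 5.96%, and none lay higher in liver, with 1.25%.

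The median log2 fold change of the 6 mitochondrial genes in heart was -0.85 at 10 weeks and -1.22 at 12 weeks against 8 weeks, and that of the 4 tested in kidney was 1.503 and 1.47. By count, the heart result moved with single libraries. Without replicate 1 of both older heart groups, a setting chosen after seeing the data, 4 genes were lower at 10 weeks, adding *mt-Co2*, *mt-Atp6* and *mt-Co3* to *Gm28661*, and 6 at 12 weeks, adding *mt-Co2*, *mt-Co3*, *mt-Nd3* and *Gm28439*, where 0.17% and 0.648% of all genes tested were lower. Without replicate 4 at 10 weeks none was lower at 10 weeks, with 0.0462% of all genes. Only *Gm28661* was lower at 12 weeks without replicate 2, 3 or 4 at 8 weeks or replicate 2 or 3 at 12 weeks. In these settings 0.522% to 0.772% of all genes were lower. In kidney, without the 2 libraries high in *Gm28661*, 3 genes, *mt-Co2*, *mt-Co3* and *Gm28661*, were higher at both ages, with 0.219% and 0.0843% of all genes. Without replicate 1 at 10 weeks, or replicate 3 or 4 at 8 weeks, 2 genes, *mt-Co2* and *mt-Co3*, were higher at 10 weeks. The share of all genes was 0.231%, 0.159% and 0.193% in these settings.

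The division of counted pairs between twins of identical sequence was compared next, as the share of the chromosome 1 gene in the sum of both, with 95% Wilson intervals that cover counting error only. For *Gm28661* and *mt-Co2* the libraries are listed by their share, from the lowest. The breaks between the listed parts were set after seeing the data and are a description. It was 59.1% to 62.2% in 12 libraries, all 4 livers at 8 weeks, replicates 2 to 4 of the kidneys at 10 weeks, replicates 1 to 3 at 12 weeks, and replicate 1 of the hearts at 10 and 12 weeks. It was 65.4% in heart replicate 4 at 12 weeks, with an interval of 60.4% to 70.0%. It was 69.3% to 73.7% in 9 libraries, all 4 kidneys at 8 weeks and the other 5 hearts at 10 and 12 weeks. It was 81.4% to 88.95% in 14 libraries, all 4 hearts at 8 weeks, all 8 livers at 10 and 12 weeks, and the 2 kidneys high in *Gm28661*. The gaps on either side of the lone heart were 3.19 and 3.93 percentage points, and the gap below the last 14 libraries was 7.72. Among those 14, heart replicate 1 at 8 weeks stood 4.07 points above the next, with an interval of 88.3% to 89.6% against 83.4% to 86.2%. On either side of that gap the intervals were 71.2% to 76.1% and 79.4% to 83.3%, so those 2 libraries differed by more than counting error. The 4 replicates lay close together in the kidneys at 8 weeks (69.3% to 69.9%) and in the livers at 8 (59.1% to 61.1%) and 10 weeks (82.8% to 83.8%).

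The other twins followed this division, drawn after seeing the data, in part or not at all. *Gm28437* took 29.0% to 51.9% of the pairs shared with *mt-Co3*. In heart and kidney it took 29.0% to 37.4% in the 8 libraries where *Gm28661* had its lowest shares, 39.4% in the lone heart and 40.3% to 51.9% in the next 9, without overlap. In the 6 hearts and kidneys with the highest shares of *Gm28661* it took 29.0% to 37.4%, like the first 8. In liver it took 29.6% to 43.5% where *Gm28661* had its lowest shares and 30.6% to 36.4% where it had its highest. In the 2 kidneys high in *Gm28661* the share of *Gm28437* was 33.2% and 29.5%, within the range of the other kidneys of those ages. *Atp6-ps* took 52.9% to 75.8% of the pairs shared with *mt-Atp6*, with 63.1% and 67.2% in those 2 kidneys. *Gm10222* took 61.9% to 96.6% of those shared with *mt-Nd4l*, with wide intervals because few pairs were counted. The source of the division was not tested.

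**Figure D4:**
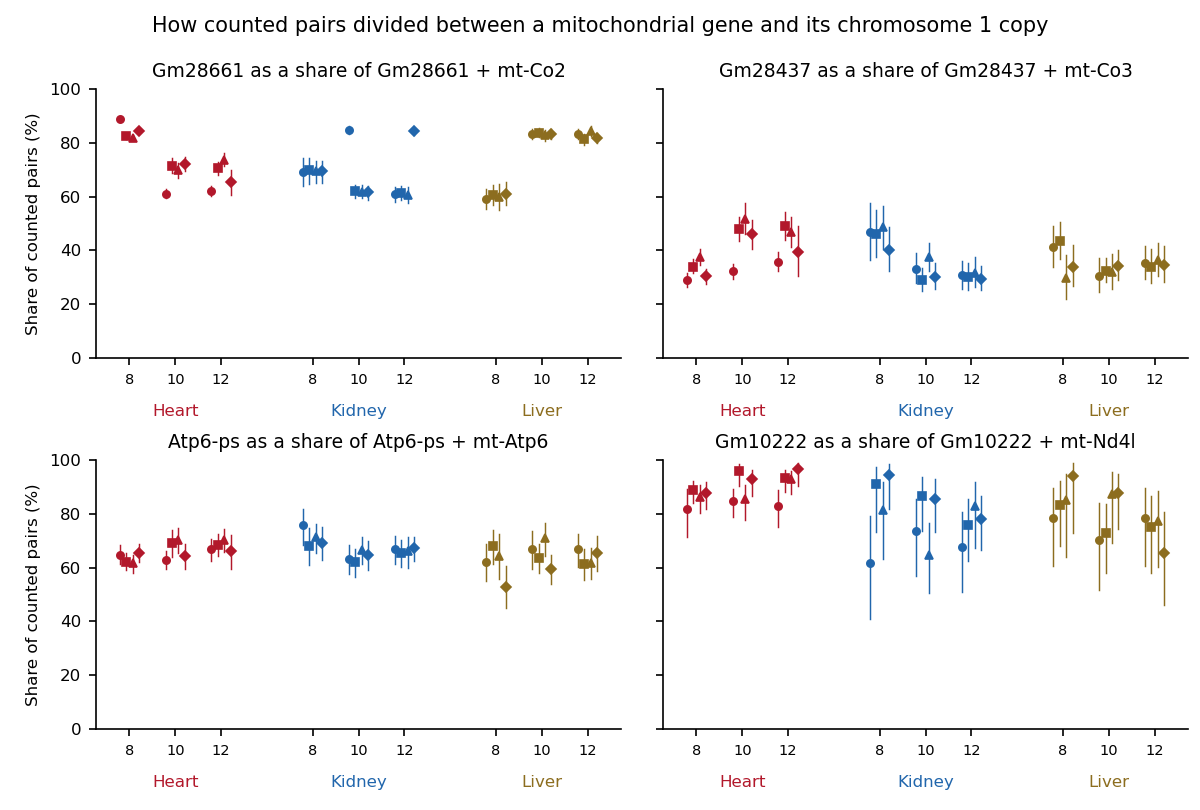
Share of counted pairs (%) on the chromosome 1 gene of 4 twin pairs in each library, with age in weeks on the horizontal axis, replicates 1 to 4 as circle, square, triangle and diamond, and 95% Wilson intervals as lines. For *Gm28661* 14 libraries lie at 81.4% or above and 22 at 73.7% or below, while the other panels show no such gap.

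The counts split by strand were uneven for some of the 9 genes. The first strand column holds pairs whose first read runs in the direction of the gene, and the second those whose first read runs against it. *Gm28661* had 74.5% to 95% of its pairs in the first column over the 36 libraries, 90.1% of all its pairs in heart, 86.2% in kidney and 92.5% in liver. *mt-Co2* leaned the other way, with 36.01%, 28.7% and 23.1% in the first column, and *mt-Co3* did so too, with 39.9%, 38.4% and 28.7%. *Gm28439* had 51.6%, 48.9% and 50.6% and *mt-Atp6* 53.2%, 54.8% and 54.5%, and the mitochondrial genes outside the stretch lay close to even, *mt-Nd1* for example at 49.3%, 49.1% and 49.1%. The chromosome 1 twins of *mt-Co3* and *mt-Atp6*, *Gm28437* and *Atp6-ps*, had 51.0% and 47.0% in heart.

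The strand columns of *Gm28661* also differed in how they varied between libraries. In liver its first column held 15.9 to 20.7 CPM at 8 weeks, 70.1 to 79.9 at 10 weeks and 68.4 to 72.3 at 12 weeks, each column scaled to its own total. Its second column held 3.61 to 6.78, 4.203 to 4.995 and 3.71 to 5.30, with overlap of all ages, and its log2 fold changes against 8 weeks from that column were -0.16 and -0.20. In kidney replicate 1 at 10 weeks had 154 CPM in the first column against 41.9 to 47.1 in the other 3, and 9.12 in the second against 9.22 to 12.8. Replicate 4 at 12 weeks had 140 against 30.1 to 38.2 in the first column, and 11.5 against 7.66 to 9.05 in the second. In heart both columns were highest at 8 weeks, 329 to 475 in the first and 23.1 to 31.4 in the second, but replicate 1 at 10 weeks reached 27.6 in the second. With the second column alone none of the 9 genes passed in heart or liver. In kidney *mt-Co2*, *mt-Co3* and *Gm28661* were higher at both ages, with 0.706% of all genes at 10 weeks and 0.0727% at 12. With the first column alone *Gm28661* was called in each comparison with 8 weeks in heart and liver, and in kidney at 10 weeks but not at 12. At 10 and 12 weeks 0.209% and 1.31% of all genes were lower in heart, and 0.0488% and 0.165% higher in liver. In kidney 0.587% and 0.0311% were higher.

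The strand columns also held pairs that the strand-blind column lacked. A pair that touches genes on opposite strands is set aside when strand is ignored, but the source of the additional pairs was not tested. For the mitochondrial members in heart, the strand columns of *mt-Atp8* summed to 1028 pairs against 92 without strand, those of *mt-Atp6* to 6240 against 2335, and those of *mt-Co2* to 13008 against 8414. In liver the sums were closer, 3178 against 3018 for *mt-Co2* and 1131 against 951 for *mt-Atp6*. *Gm28661* had 31995 against 31982 in heart. 

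**Figure D5:**
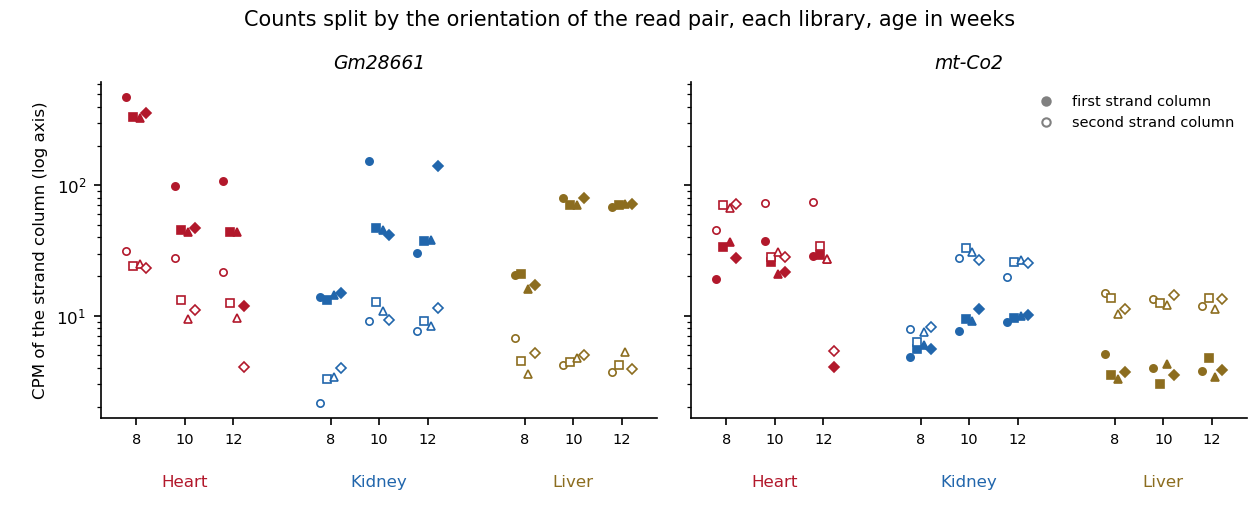
Level (CPM of each strand column, log axis) of *Gm28661* and *mt-Co2* in each library, with age in weeks on the horizontal axis, filled symbols for the first strand column and open symbols for the second, and circle, square, triangle and diamond for replicates 1 to 4. In liver the filled symbols of *Gm28661* rise from 15.9 to 20.7 at 8 weeks to 68.4 or more, while the open symbols stay between 3.61 and 6.78.

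Of the 5 other genes annotated in the stretch on chromosome 1, *Gm28438* was at 0 in all 36 libraries and *Gm71269* had 1 pair in all. *Gm28438* (chr1:24651856-24652200) lies wholly inside *Gm71269* (chr1:24651850-24652265), so a pair on it touches both genes and is counted for neither. These low counts therefore do not show whether pairs fell there. The other 3 were below 0 in log2 fold change in heart and above 0 in kidney and liver against 8 weeks. *Gm29216*, the copy of the end of *mt-Co1*, was lower in heart at 12 weeks, 8.19 against 18.7 CPM on average with a log2 fold change of -1.23 ± 0.29 (edgeR adjusted p = 0.0298). In kidney at 10 weeks *Gm28437* and *Gm29216* were higher, with log2 fold changes of 1.02 ± 0.16 (adjusted p = 0.0135) and 0.87 ± 0.18 (adjusted p = 0.0414). None of the 3 passed in liver with edgeR, DESeq2 or limma-voom, where 1 of them at 10 weeks and 1 at 12 weeks had an unadjusted p under 0.05 against 8 weeks in edgeR.

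Next come the mitochondrial genes outside the stretch or only partly in it. Of 9 genes, 7 protein genes and both ribosomal RNAs, none passed the test in any of the 9 comparisons with edgeR or limma-voom, 1 passed with DESeq2 in kidney at 12 against 10 weeks, and 0 to 3 per comparison had an unadjusted p under 0.05 in edgeR. The median log2 fold change at 12 against 8 weeks was -0.15 for hearts, -0.03 for kidneys and 0.09 for livers. *mt-Co1* had -0.18 ± 0.09 in heart, -0.05 ± 0.08 in kidney and 0.12 ± 0.09 in liver, against -1.19 ± 0.50, 1.89 ± 0.11 and 0.04 ± 0.12 for *mt-Co2*. The first strand column gave -0.42 ± 0.35, 0.82 ± 0.13 and 0.05 ± 0.18 for *mt-Co2*, and the second -0.90 ± 0.44, 1.70 ± 0.12 and 0.02 ± 0.12. Few nuclear partners of the members passed. Of 14 nuclear genes of cytochrome c oxidase, 1 was lower in heart at 12 against 8 weeks, *Cox4i1*, with a log2 fold change of -0.62 ± 0.13 (adjusted p = 0.0153), and 2 of 13 tested were higher in kidney at 10 against 8 weeks, *Cox7a2* with 0.27 ± 0.05 (adjusted p = 0.0183) and *Cox7c* with 0.28 ± 0.06 (adjusted p = 0.0368). Of 17 nuclear ATP synthase genes, 3 were higher in that comparison, *Atp5f1e* with 0.32 ± 0.05, *Atp5me* with 0.77 ± 0.15 and *Atp5po* with 0.97 ± 0.15 (adjusted p = 0.0151, 0.0299 and 0.0135). *Cox7a2*, *Cox7c*, *Atp5f1e* and *Atp5po* were lower again at 12 against 10 weeks. Of 7 core complex I genes, *Ndufs1* was higher with 0.29 ± 0.08 (adjusted p = 0.0441) and *Ndufs7* lower with -0.40 ± 0.10 (adjusted p = 0.0308) in heart at 12 against 8 weeks. In liver no gene of these 3 lists passed with edgeR or limma-voom, 2 ATP synthase genes passed with DESeq2 at 12 against 10 weeks, and 0 to 7 genes per list and comparison had an unadjusted p under 0.05 in edgeR.

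The counted pairs of the stretch were few beside the pairs left out as multimapping. Multimapping pairs made up 16.2% to 19.1% of all pairs in heart, 7.62% to 9.17% in kidney and 6.26% to 7.04% in liver, and the pairs counted on the 9 genes and the 5 other chromosome 1 genes amounted to 0.0157% to 0.162% of that number. The mean share was 8.97 percentage points higher in heart than in kidney, 10.7 higher in heart than in liver and 1.76 higher in kidney than in liver, each with a two-sided permutation p of 2.0e-05, the smallest that 100000 resamples can give, and an adjusted p of 2.0e-05 over 3 tests. Since the tissues may share animals, the libraries were also paired by the number in their names, and each difference had the same sign in 12 of 12 pairs (two-sided exact permutation p = 0.000488, the smallest that 4096 sign changes can give). In heart the share was 17.3% to 19.1% at 8 weeks, 17.1% to 18.8% at 10 weeks and 16.2% to 16.6% at 12 weeks, and age accounted for 59.9% of its variance (one-sided exact permutation p = 0.0178, adjusted p = 0.0470 over 3 tests). In liver it was 6.26% to 6.59%, 6.73% to 7.04% and 6.46% to 6.94%, with 55.3% of the variance (exact permutation p = 0.0313, adjusted p = 0.0470). In kidney it was 8.02% to 8.997%, 8.37% to 9.17% and 7.62% to 8.60%, with 25.4% (exact permutation p = 0.260). The adjusted p in heart rose above 0.05 when any 12-week heart or replicate 2 or 4 at 10 weeks was left out, where age took 52.5% to 61.7%, and that in liver when any 8-week liver, replicate 2, 3 or 4 at 10 weeks or replicate 2 or 3 at 12 weeks was left out, where it took 48.9% to 57.8%. The multimapping share holds pairs from the whole genome, and which of them match the stretch is not analysed here.

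The genes outside the 9 whose level followed them most closely were pseudogenes. The measure was Pearson's r over 36 libraries of log2(CPM + 0.1) after subtracting the mean of each tissue, among 12537 genes, and the points share libraries and depth. For the sum of the 6 mitochondrial genes the highest were *Gm28437* (0.90), *Atp6-ps* (0.89), *Gm29216* (0.89), *Gm11263* on chromosome 4 (0.85) and *Gm10288* on chromosome 3 (0.75). For the sum of the 3 chromosome 1 genes they were *Atp6-ps* (0.90), *Gm4332* on chromosome 3 (0.89), *Gm11263* (0.86), *Gm29216* (0.86) and *Gm28437* (0.82). *Gm11263*, *Gm10288* and *Gm4332* are annotated as processed pseudogenes and averaged 0.513 to 2.09 CPM in each tissue. The likeness differed by tissue, with r for *Gm10288* of 0.85 over 12 hearts, 0.87 over 12 kidneys and -0.09 over 12 livers, and for *Gm4332* of 0.93, 0.97 and 0.88.

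The change with age was compared between tissues in edgeR's fit of all 36 libraries as separate samples, from the strand-blind counts only. The study took all 3 organs from a mouse, and the library names carry the same 12 numbers in each tissue, so libraries of different tissues may come from the same animals. Heart minus kidney at 12 against 8 weeks was called for 4 of the 9 genes, *mt-Co2*, *mt-Atp6*, *mt-Co3* and *Gm28661*, where 0.112% of 19716 genes were called, and at 10 against 8 weeks for the same genes, where 0.198% were called. Its values for *mt-Co2* were -3.07 ± 0.56 and -3.00 ± 0.55 on the log2 scale. Heart minus liver was called for 3 genes at 12 weeks, *mt-Atp6*, *mt-Co3* and *Gm28661*, where 4.16% were called, and for *Gm28661* at 10 weeks, where 1.09% were called. Kidney minus liver was called for none of the 9, where 0.304% and 0.0558% were called at 12 and 10 weeks. With the number in the library name as a block, a setting chosen after seeing the data, the same genes were called except *mt-Atp6* for heart minus kidney at 10 weeks, which was -1.85 ± 0.40 (adjusted p = 0.0543). Of all genes that fit called 0.101% and 0.132% for heart minus kidney at 12 and 10 weeks. It called 3.61% and 1.11% for heart minus liver, and 0.533% and 0.147% for kidney minus liver.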

How the data were processed

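Read pairs were counted in 36 libraries. The counts deposited by the authors are whole numbers per gene without normalization, made with STAR 2.7.11b after FastQC 0.11.9 and cutadapt 4.2 on GRCm39 with Ensembl v113, in 1 strand-blind and 2 strand columns. CPM is the count divided by all pairs counted on genes, times 1000000. Names and positions of 78168 of the 78239 gene IDs came from another Ensembl release of the same build, and the stretch was found with blastn 2.17.0.

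Genes were tested, tissue by tissue, if any age had a mean count of 10 or more with 2 or more samples above 0. The fit used edgeR 4.0.16 (quasi-likelihood test, TMM factors, R 4.3.3) with a mean for each age, Benjamini-Hochberg adjustment over all genes tested and a threshold of 0.05. Differences between tissues came from 1 fit of all libraries. The fit was tested on simulated data. Alternatives were RLE factors, no filter, filterByExpr, DESeq2 1.42.0, limma-voom (limma 3.58.1), a replicate block, 2 ages only, each strand column, other denominators, each library left out and, between tissues, the number in the library name as a block. Multimapping shares were tested by permutation (scipy 1.17.1), over ages with all 5775 divisions of a tissue. A symbol with 2 IDs, as *Atp5po*, was taken as the ID with the longer exons. The edgeR p-values rest on the spread between libraries within a group, estimated over all groups of a fit. Those for multimapping shares between tissues rest on the 12 libraries of each tissue, or 12 pairs, with the ages pooled.

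The members, gene lists and alternatives were chosen with earlier results of these data known. The genes named are the members, the other mitochondrial protein and ribosomal RNA genes, the other genes of the chromosome 1 stretch, up to 3 genes with the lowest adjusted p of each nuclear list, and the 5 genes most like each sum. *Cox4i1*, *Cox7a2*, *Cox7c*, *Atp5f1e*, *Atp5me*, *Atp5po*, *Ndufs1* and *Ndufs7* were all the genes called in those lists.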

Additional observations from a re-analysis of the deposited data

Results flagged for a closer look

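In 99 groups of 4 libraries, 8 had a library far from the other 3 by Dixon's test, which chance alone flags in about 1 of 20 groups. *mt-Co2* was 47.1 CPM in heart replicate 1 at 10 weeks against 13.01 to 13.7 in the other 3, and *Gm28661* was 73.9 in the same library against 31.4 to 34.4. *Gm28661* was 95.5 CPM in kidney replicate 1 at 10 weeks against 30.0 to 35.1, and 88.6 in kidney replicate 4 at 12 weeks against 22.1 to 27.4. The share of *Gm28661* in the sum with *mt-Co2* was 84.9% in the former library against 61.6% to 62.0%, and 84.4% in the latter against 60.6% to 61.2%. *Gm28439* was 8.80 CPM in heart replicate 1 at 8 weeks against 10.2 to 10.3, and 3.06 in kidney replicate 3 at 10 weeks against 3.44 to 3.52.

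The change with age differed between tissues in edgeR's interaction test (adjusted p under 0.05 over 19716 genes) for 12 combinations of gene and comparison. They come from the strand-blind counts only and are given as a description, since the genes were chosen with such changes known. For 12 against 8 weeks, heart minus kidney was -3.07 on the log2 scale for *mt-Co2*, -2.07 for *mt-Atp6*, -3.48 for *mt-Co3* and -4.72 for *Gm28661*, where 0.112% of all genes were called. For 10 against 8 weeks it was -3.00, -1.77, -2.97 and -4.61 for the same genes, where 0.198% were called. Heart minus liver at 12 against 8 weeks was -1.48 for *mt-Atp6*, -2.13 for *mt-Co3* and -4.38 for *Gm28661*, where 4.16% were called, and at 10 against 8 weeks -4.12 for *Gm28661*, where 1.09% were called. Kidney minus liver was called for none of the 9 genes, where 0.304% and 0.0558% of all genes were called.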

How the results depend on the processing

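RLE factors and filterByExpr left the counts of called genes as they were. With no count filter 6 genes were lower in heart at 10 weeks (0.8294% of all genes in that direction), 6 at 12 weeks (1.66%) and 1, *mt-Co3*, at 12 against 10 weeks (0.606%), and 5 were higher in kidney at 12 weeks (0.789%). DESeq2 called 3 in heart at 12 weeks (3.9% of all genes lower), 5 in kidney at 10 weeks (2.26% higher), 5 at 12 weeks (0.459%) and 2 in liver at 10 weeks (1.27%). Limma-voom called 6 in heart at 12 weeks (2.34%) and 3 in kidney at 10 weeks (0.652%), where *Gm28661* was lost. The first strand column gave 1 in heart (1.31% lower) and 1 in kidney (0.0311% higher) at 12 weeks. The second gave 0 in heart (0.140% and 1.37% lower at 10 and 12 weeks) and 0 in liver at either age (0.0489% and 0.232% higher). Its log2 fold changes of *Gm28661* in liver were -0.16 and -0.20, opposite in sign to the strand-blind values. In the replicate block, 2 genes were lower in heart at 10 weeks (0.456%) and 6 at 12 weeks (2.38%), and 3 were higher in kidney at 10 weeks (0.72%). Between ages the numbers are only names, since deviations of samples with the same number correlated by -0.07 to 0.15 in heart, -0.22 to 0.16 in kidney and -0.32 to 0.25 in liver. Between tissues, deviations of libraries with the same number in their names correlated by 0.03 to 0.17 for heart and kidney, -0.02 to 0.11 for heart and liver and 0.03 to 0.23 for kidney and liver, with means of 0.09, 0.06 and 0.12 against -0.03, -0.02 and -0.04 for libraries of the same age with different numbers. With that number as a block, 4 and 3 genes were called for heart minus kidney at 12 and 10 weeks, 3 and 1 for heart minus liver and 0 for kidney minus liver, and the call lost was *mt-Atp6*. Except where a value bears on it, the cause was not tested.

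With a library left out, the counts ran from 0 to 4 and 1 to 6 in heart at 10 and 12 weeks, 2 to 5 and 2 to 3 in kidney, and stayed at 1 in liver, with 0 for 12 against 10 weeks in each tissue. The share of all genes called moved too. At 10 and 12 weeks against 8 it was 0.0462% to 1.06% and 0.522% to 6.38% lower in heart. In kidney it was 0.119% to 1.39% and 0.0227% to 0.102% higher, and in liver 0.00676% to 0.349% and 0.0137% to 0.390% higher. The upper values of 4 and 6 in heart and 3 in kidney at 12 weeks come from leaving out 2 libraries together, chosen after seeing the data. With single libraries left out the most was 2 in heart at 10 weeks, without its replicate 1 (0.132% of all genes lower), and 5 at 12 weeks, without its replicate 1 (0.865%). Age then took 52.5% to 69.0% of the variance of the multimapping share in heart, 14.98% to 38.04% in kidney and 48.9% to 67.4% in liver, and the tissue differences ran from 8.82 to 9.09, 10.6 to 10.8 and 1.69 to 1.83 points.

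The summed CPM of the 6 mitochondrial genes, 85.5, 42.9 and 34.3 for hearts, 9.32, 33.3 and 28.8 for kidneys and 16.2, 19.7 and 18.1 for livers at 8, 10 and 12 weeks, ranged with a library left out from 83.9 to 86.8, 27.6 to 48.9, 19.6 to 42.2, 9.11 to 9.61, 31.6 to 34.1, 27.8 to 30.3, 15.5 to 16.98, 19.4 to 20.3 and 17.6 to 18.5. Relative to all pairs of a library it was 60.7 in heart at 8 weeks, 7.21, 25.6 and 22.4 in kidney and 12.4, 14.2 and 13.3 in liver. Without mitochondrial counts it was 122 in heart and 10.4 in kidney at 8 weeks, 37.1 in kidney at 10 weeks, and 21.1 and 19.4 in liver at 10 and 12 weeks. From both strand columns it was 104, 81.2 and 65.3 for hearts, 16.5, 37.1 and 33.9 for kidneys, and 17.9 and 16.6 for livers at 10 and 12 weeks. Against 8 weeks the heart sums thus fell less, and the kidney sums rose less, than the strand-blind sums. The sum of the 3 chromosome 1 genes, 249, 53.8 and 46.9 for hearts, 13.2, 53.2 and 46.1 for kidneys and 16.8, 50.8 and 47.8 for livers, ranged with a library left out from 230 to 257, 42.1 to 58.4, 33.04 to 57.8, 12.8 to 13.5, 37.5 to 59.2, 30.1 to 52.9, 16.0 to 17.6, 49.6 to 51.8 and 47.1 to 48.4. Relative to all pairs of a library it was 177 in heart and 10.2 in kidney at 8 weeks, and 12.8, 36.5 and 35.1 in liver. Without mitochondrial counts it was 355 and 77.3 in heart at 8 and 10 weeks, 14.7 in kidney at 8 weeks, and 54.4 and 51.3 in liver at 10 and 12 weeks. From both strand columns it was 11.3 in kidney at 8 weeks and 14.1, 42.5 and 39.97 in liver. For *mt-Nd3*, 6.12% of windows of 300 bases and 1.205% of 100 bases held a differing base, and no such value exists for *mt-Atp8* and *mt-Nd4l* at 300 bases, since they are shorter.

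In data simulated for 12 against 8 weeks, 76%, 77% and 59% of genes changed by 1 on the log2 scale were found in heart, kidney and liver, and 97%, 92% and 86% of those changed by 2. False calls made up 5.46%, 5.59% and 7.64% of the calls. The changed genes were drawn at random from all genes tested, so these shares are not those of the members. Counts of at most 51 pairs limit *mt-Atp8*, *mt-Nd3* and *mt-Nd4l*, and pairs that match both copies equally are not in the counts.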
